A study of Mus musculus with 3 samples.

Results

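The cardiac muscle bins were 62 small squares of the thymus section labelled KO1308 that held transcripts of heart muscle. The deposited counts were summed in squares of 27 µm, called bins, and counts are of unique molecular identifiers (UMIs), the tags that let copies of 1 captured transcript be counted as 1. Bins with fewer than 300 genes or with over 30% mitochondrial UMIs were left out. A kept bin was taken as a cardiac muscle bin when it held at least 5 UMIs over 6 genes of the cardiac contractile apparatus (*Myh6*, *Actc1*, *Myl7*, *Tnnt2*, *Tnni3* and *Myl4*, called the rule genes below). This left 62 of the 17425 kept bins of the section (0.356%), of 56744 kept bins in all 3 sections. The values of the rule genes chose the bins, so they are given as a description. A bin is a small region that can hold several cells, and the name says which transcripts it held, not that it was made of 1 cell type.

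Thymus sections came from 3 female C57BL/6 mice whose blood vessels had been rinsed with cold PBS through the heart. Mice KO1308 (21 weeks old) and KO1134 (17 weeks old) were labelled *Trp53*-/- (KO), and mouse WT1101 (17 weeks old) was labelled *Trp53*+/+ (WT). There was 1 section per mouse, the WT section was permeabilised for a different time from the KO sections, and the allele behind the KO label is not described in the labels. *Trp53* read 25.3 CPM (UMIs per 1000000 UMIs of the same bins) in the kept bins of KO1308 and 17.0 CPM in KO1134, against 79.8 CPM in WT1101. Sections held 21089885 (KO1308), 31237062 (KO1134) and 41581477 (WT1101) UMIs. The number of bins and the depth per bin that the study lists under the name KO1308 lie nearer to the files labelled KO1134 than to those labelled KO1308. The names used here follow the labels, and an exchange of the 2 KO sections cannot be told apart from an error in that list. With 1 section per mouse no test between sections or conditions could be made. Intervals in brackets are 95% intervals (exact Poisson for CPM, exact binomial for shares, exact conditional binomial for ratios) and cover counting error only.

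Cardiac muscle contracts when calcium released from the sarcoplasmic reticulum binds troponin C and lets myosin heads pull on actin filaments. Its cells differ from skeletal muscle in the isoforms of these proteins that they use, and atrial cells differ from ventricular cells in their myosin light chains and in calcium pump regulators. The thymus lies next to the heart, and in mice cardiac muscle also extends from the heart into the walls of large veins of the chest. The thymus itself contains a few myoid cells, which make skeletal muscle proteins, and its medullary epithelium transcribes many genes of other organs at low levels.

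Serum response factor binds the CArG box, a motif found before many muscle genes, and the windows that held it are shown because the genes below were abundant in the same small group of bins. Promoter windows of 300 bases (250 before to 50 after a transcription start, RefSeq, GRCm38.p6) were available for 20 of the 27 genes of the rule, atrial, sarcomere, calcium and energy lists that were higher in the cardiac muscle bins, as 2.23% of all genes tested were by the rule given below. Of their 27 windows, 4 held a CArG box (14.8%), against 535 of 32851 windows of all genes (1.63%). The 4 windows are of 3 genes and hold 3 boxes, since the 2 *Ldb3* windows overlap and hold the same one, and *Actc1* and *Myl7* are rule genes, whose values chose the bins. *Ldb3* had 45 UMIs in the rest of the kept bins and reached the minimum of 50 used below only with those of the cardiac muscle bins. None of the 3 genes was thus taken up independently of these bins, and the 2 shares are given as a description. The 120 bases before the start are printed 5′ to 3′ on the strand of the gene, with the CArG box in capitals, for *Actc1* (chr2:114052876-114052995, minus strand), *Myl7* (chr11:5898783-5898902, minus strand) and 1 of the 2 overlapping windows of *Ldb3* (chr14:34588682-34588801, minus strand).
Actc1: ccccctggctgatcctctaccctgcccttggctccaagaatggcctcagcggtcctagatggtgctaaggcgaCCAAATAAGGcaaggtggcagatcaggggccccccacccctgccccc
Myl7: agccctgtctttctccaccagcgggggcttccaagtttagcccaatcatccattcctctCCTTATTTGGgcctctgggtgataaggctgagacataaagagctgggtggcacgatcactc
Ldb3: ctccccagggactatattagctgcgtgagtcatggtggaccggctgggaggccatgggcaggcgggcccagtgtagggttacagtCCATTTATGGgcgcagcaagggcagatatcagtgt
The box ended 38, 52 and 26 bases before the start of *Actc1*, *Myl7* and *Ldb3*. The letters GATAAG on either strand, which GATA factors can bind, were in 3 of the 27 windows (*Des*, *Myl7* and *Tnni3*), a share of 11.1% against 7.44% of all windows. The letters TATAAA on either strand were in 2 of the 27 (*Actc1* and *Myh6*), a share of 7.41% against 13.6%. A match is a description of the window and not evidence of binding.

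The cardiac muscle bins lay almost all in 1 place. Of the 62, 54 touched each other side to side or corner to corner in a strip that spanned 324 µm in x and 324 µm in y at the outer edge of the tissue. A group of 4 bins and 3 single bins lay within 278 µm of that strip, and 1 single bin lay 4759 µm away in the other large piece of tissue. The bins were a median of 76.4 µm (27 to 1053 µm) from the edge of the area with UMIs, and 44 of 62 lay within 100 µm of it, against 9.74% of the other kept bins. They held a median of 1208 UMIs (369 to 3380) and 780.5 genes (306 to 2000), above the medians of 833 UMIs and 654 genes in the other kept bins. A rule set on a number of UMIs takes deeper bins more easily, so the depth of the bins is not independent of the choice.

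**Figure D1:**
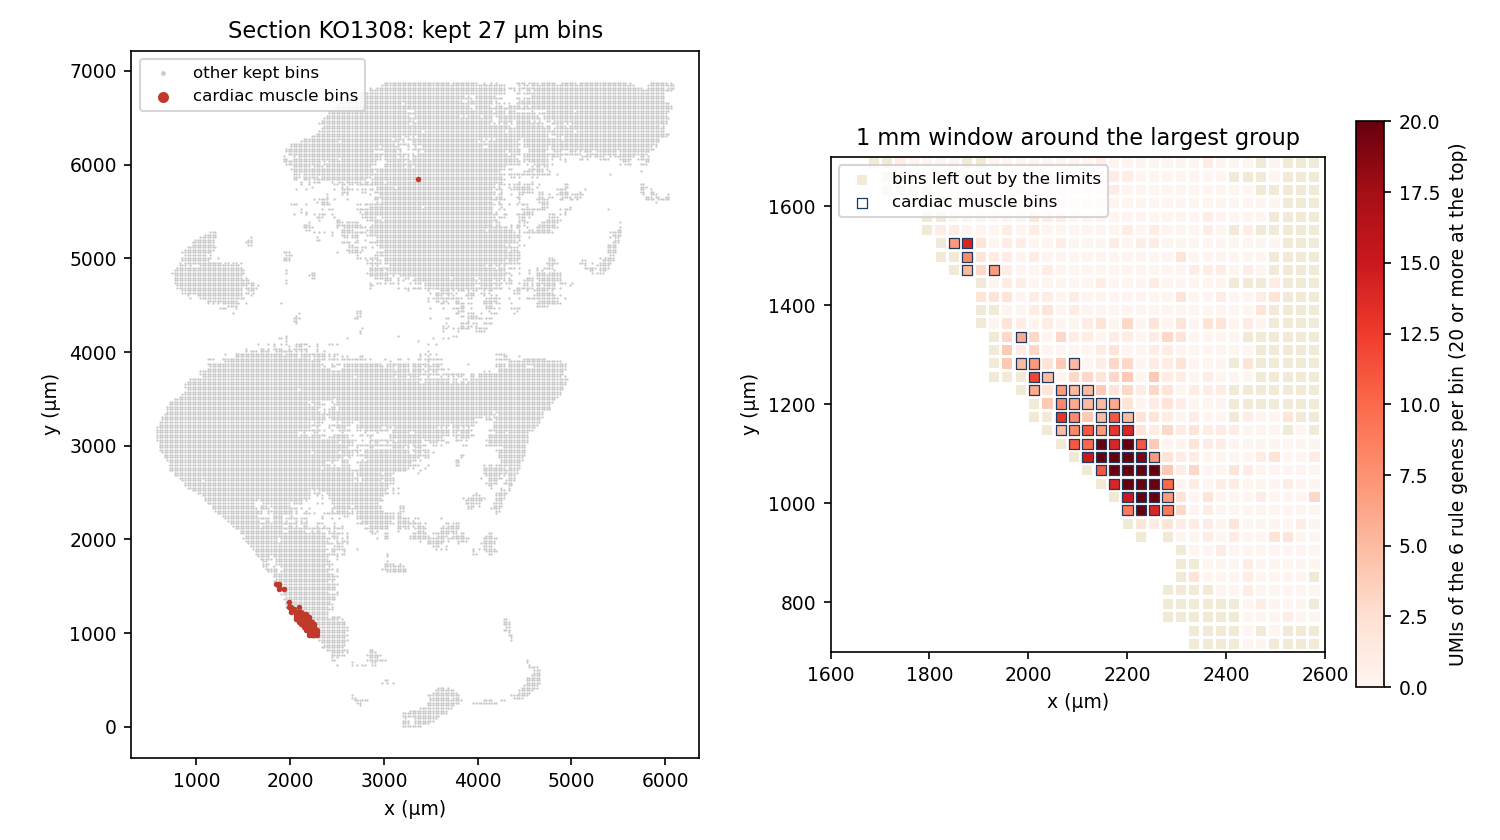
Left, positions (x and y in µm) of the kept 27 µm bins of section KO1308, with the 62 cardiac muscle bins in red. Right, a 1 mm window coloured by UMIs of the 6 rule genes per bin, with cardiac muscle bins outlined and bins left out by the limits in beige. The strip of 54 bins follows the lower left edge of the tissue, and the highest bin holds 44 rule UMIs.

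The 62 bins held 834 UMIs of the rule genes, of 1963 in all kept bins of the section. A bin held a median of 10.5 (5 to 44), or 1.05% of its UMIs (0.179% to 4.44%), and 33 bins held at least 10. Most bins held several rule genes together: 58 of 62 had at least 3 of them, 38 at least 5 and 27 all 6, and none had only 1.

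*Myh6*, the fast myosin heavy chain of the adult mouse heart, had 128 UMIs in the cardiac muscle bins, with 0 to 6 per bin and a median of 1.5. *Actc1*, the cardiac actin of the thin filament, had 84 UMIs, with 0 to 7 per bin and a median of 1. *Myl7*, the atrial regulatory light chain, had 167 UMIs, with 0 to 11 per bin and a median of 2. These genes were found in 50, 39 and 48 of the 62 bins. *Myl4*, the atrial essential light chain, had 170 UMIs with up to 18 in 1 bin. Cardiac troponin T (*Tnnt2*) had 135 UMIs with up to 7 in a bin, and cardiac troponin I (*Tnni3*) had 150 with up to 11. In CPM, the bins stood at 1512 for *Myh6*, 992 for *Actc1*, 1973 for *Myl7*, 1595 for *Tnnt2*, 1772 for *Tnni3* and 2008 for *Myl4*.

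The rule genes differed in how much of their signal lay elsewhere in the section. The cardiac muscle bins held 70.3% (63.1% to 76.9%) of all UMIs of *Myh6* in kept bins and 65.6% (56.7% to 73.8%) of those of *Actc1*. They held 33.4% (29.1% to 38.0%) of those of *Tnni3* and 29.6% (25.9% to 33.5%) of those of *Myl4*. Beyond 400 µm from any cardiac muscle bin, *Myh6* read 0.787 CPM, whereas *Tnni3* read 14.04 CPM and *Myl4* 20.3 CPM.

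Each rule gene was also measured in bins chosen by the other 5 genes alone, with the same minimum of 5 UMIs, so that it had no part in the choice. The bins so chosen numbered 49 to 59. *Myh6* then read 1510 CPM against 3.65 CPM in the remaining kept bins, a ratio of 414 (304 to 568), and *Actc1* read 975 against 2.61 CPM, or 373-fold more (258 to 545). For *Myl7* the same ratio came to 241 (191 to 303), for *Tnnt2* to 156 (124 to 197), for *Tnni3* to 106 (85.0 to 130) and for *Myl4* to 84.9 (69.6 to 103).

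The other sections held next to no such bins. The rule was passed by 1 of 12044 kept bins of KO1134 (0.0083%, 0.00021% to 0.0463%) and by 1 of 27275 kept bins of WT1101 (0.00367%, 9.28e-05% to 0.0204%). The bin of KO1134 held 5 UMIs of *Tnni3* and none of the other 5 rule genes. The bin of WT1101 held 6 UMIs of *Myl7*, 2 of *Tnnt2* and 2 of *Tnni3*, 1 UMI of the 21 sarcomere genes, and 12 UMIs of 9 white adipocyte genes. At a lower minimum of 3 UMIs the counts were 98 bins in KO1308, 18 in KO1134 and 4 in WT1101, and all 17 bins of KO1134 with 3 or 4 UMIs held a single rule gene, against 7 of the 36 such bins of KO1308. KO1134 carries the same genotype label as KO1308, and WT1101 had the same age as KO1134. KO1308 differed from both in mouse, age and depth, with a median of 834 UMIs per kept bin against 2641 in KO1134 and 1350 in WT1101. The place of the cut through each thymus is not given in the sample labels. These cannot be told apart.

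Over all kept bins, *Myh6* had 182 UMIs in KO1308 (9.87 CPM), 3 in KO1134 (0.0963 CPM) and 5 in WT1101 (0.123 CPM). *Actc1* had 128, 4 and 3 UMIs in the same order, and *Sln* 115, 5 and 4. *Myl4* and *Tnni3* were spread over all sections: *Myl4* had 575 in KO1308, 404 in KO1134 and 335 in WT1101, and *Tnni3* had 449, 261 and 174. Among fast skeletal muscle genes, *Acta1*, the skeletal actin, had 8 UMIs in KO1308, 273 in KO1134 and 13 in WT1101, and *Myh4*, a fast skeletal myosin, had 19, 714 and 13. *Mylpf*, a light chain of fast muscle, was highest in WT1101, with 340, 442 and 1482 UMIs. The 14 genes of that list summed to 93.9 CPM in KO1308, 113 CPM in KO1134 and 53.7 CPM in WT1101.

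**Figure D2:**
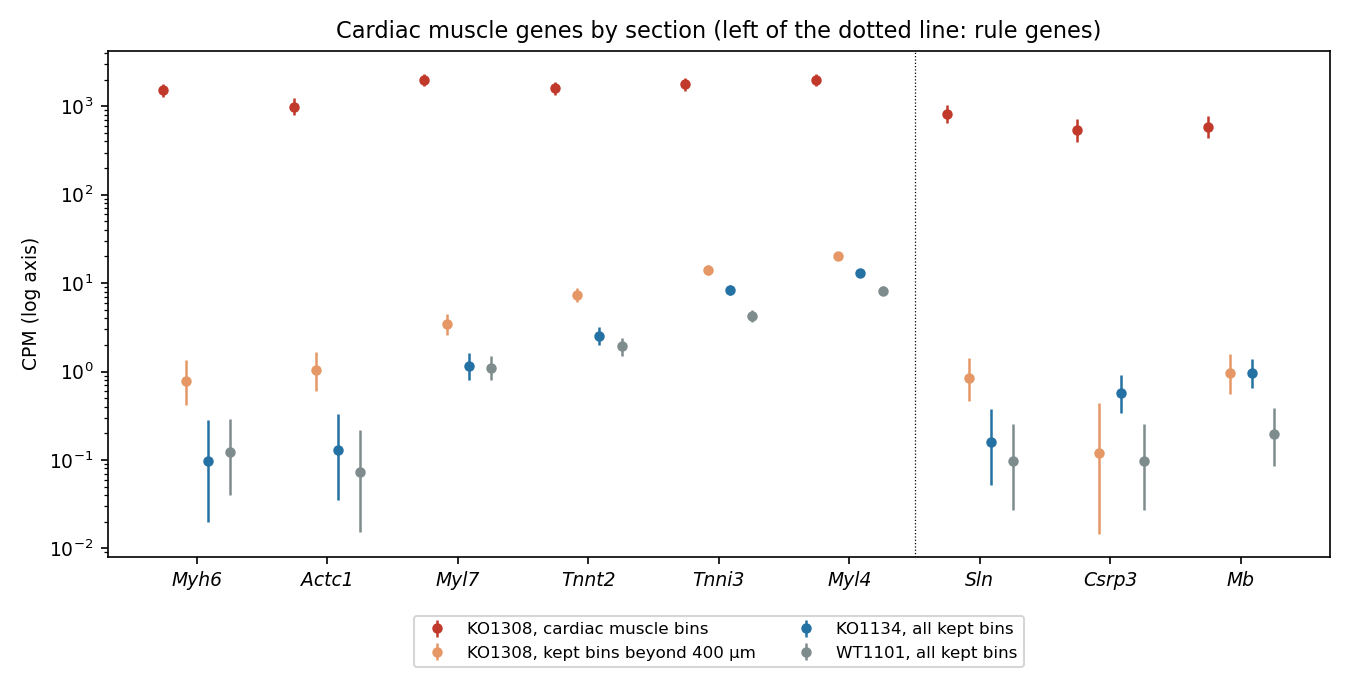
Level (CPM, log axis) of the 6 rule genes and of *Sln*, *Csrp3* and *Mb* in the cardiac muscle bins, in kept bins of KO1308 beyond 400 µm from them, and in all kept bins of KO1134 and WT1101; bars are exact Poisson 95% intervals. *Myh6* stands at 1512 CPM in the cardiac muscle bins and below 1 CPM in the other groups, while *Myl4* is at 8.24 to 20.3 CPM in them.

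All genes were compared between the cardiac muscle bins (84664 UMIs) and the other 17363 kept bins of the section (18364247 UMIs). A gene was called higher or lower when its CPM differed at least 2-fold and the interval of the ratio lay on 1 side of 1. Of 15693 genes with at least 50 UMIs in kept bins, 350 were called higher (2.23%) and 439 lower (2.80%), and the median ratio over all 15693 was 0.679. The 350 include the 6 rule genes, whose values chose the bins. A count of 0 in the cardiac muscle bins allows up to 3 UMIs, or 35.4 CPM, so that genes of low level could not be seen at this depth. Of the 350 genes called higher, 12 reached 50 UMIs only with those in the cardiac muscle bins themselves, and 8 of them were genes of the lists used here (*Actc1*, *Sln*, *Csrp3*, *Tcap*, *Ldb3*, *Nexn*, *Mb* and *Ckm*). Such genes had to differ to be tested, so counts are also given over genes with at least 50 UMIs in the other kept bins alone, where 338 of 15679 were called higher (2.16%). Of these, 5 were rule genes.

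Of 5 measured atrial genes 1 was called higher, and of 2 measured ventricular genes none was. Most UMIs of both lists came from single genes, *Sln* and *Myh7*. *Sln*, sarcolipin, a regulator of the calcium pump that is typical of atria, had 70 UMIs (827 CPM, 645 to 1045) against 45 in the other kept bins (2.45 CPM), a ratio of 337 (229 to 502). It was found in 35 of 62 bins, with up to 6 UMIs in a bin. *Sln* is at chr9:53850164-53854560 (plus strand, GRCm38). *Mybphl*, a myosin-binding protein of atrial muscle, had 13 UMIs against 23, a ratio of 123 (57.0 to 252), and lay in 10 bins. *Kcnj3* and *Kcnj5*, subunits of the acetylcholine-gated potassium channel of atria, had 3 and 2 UMIs. Their ratios were 40.7 (7.59 to 142) and 48.2 (5.07 to 233), with too few UMIs for a call.

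*Nppa*, which encodes the atrial natriuretic peptide, had 0 UMIs in the cardiac muscle bins and 9 in the other kept bins. *Bmp10*, made in atrial muscle, had 0 UMIs in both. *Gja5*, *Kcna5* and *Nr2f1* also had 0 in the cardiac muscle bins. *Nr2f2*, *Stard10* and *Dkk3* had 2 or 3 UMIs each, at ratios between 1.41 and 1.91 whose intervals included 1. Of the 13 atrial genes, 5 had at least 50 UMIs, of which 1 (*Sln*) was called higher and none lower, with a median ratio of 1.47. *Sln* had 45 UMIs elsewhere and reached the minimum only with those of the cardiac muscle bins, and none of the other 4 was called (median ratio 1.44).

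Of ventricular genes, *Myl2* and *Myl3*, the ventricular light chains, had 1 UMI each in the 62 bins against 13 each in the other kept bins, a ratio of 16.7 (0.393 to 111) for each. *Myh7*, the slow myosin heavy chain, had 8 UMIs in 7 bins against 8 elsewhere, a ratio of 217 (71.0 to 663). *Myh7* shares long stretches of sequence with *Myh6*, so reads of the 2 genes can be confused. *Irx4*, *Hey2*, *Hand1* and *Nppb* had 0 UMIs in the cardiac muscle bins, and *Kcnip2* had 1. Of the 8 genes, 2 had at least 50 UMIs and neither was called in either direction (median ratio 1.62).

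Summed over the lists, atrial genes read 1146 CPM (929 to 1398) against 69.9 CPM in the other kept bins, a ratio of 16.4 (13.2 to 20.2). Ventricular genes read 130 CPM (64.9 to 232) against 9.64 CPM, a ratio of 13.48 (6.61 to 24.7). The intervals of the 2 ratios overlap. The rule genes include the atrial light chains *Myl7* and *Myl4* and no ventricular light chain, so the choice of bins may favour atrial muscle. In bins chosen without *Myl7* and *Myl4*, the atrial ratio was 18.4 (14.4 to 23.1) and the ventricular ratio 19.1 (9.34 to 34.9). Atrial genes then made up 87.6% (79.0% to 93.7%) of the UMIs of both lists. Atrial genes made up 97 of 108 atrial plus ventricular UMIs in the cardiac muscle bins (89.8%, 82.5% to 94.8%) and 87.9% (86.1% to 89.5%) in the other kept bins, where *Nr2f1*, *Nr2f2*, *Stard10* and *Dkk3* accounted for most of them. The share over whole lists therefore did not set the cardiac muscle bins apart from the section. Without *Sln* and *Myh7*, chosen after their values were seen, the ratios were 4.73 (3.10 to 6.92) for 12 atrial genes and 3.85 (0.786 to 11.4) for 7 ventricular genes. By bin, 36 of 62 held atrial but no ventricular UMIs, 2 ventricular but no atrial, 8 both and 16 neither. The atrial list is the longer, and these counts were not taken over the other kept bins, so they do not set the cardiac muscle bins apart.

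**Figure D3:**
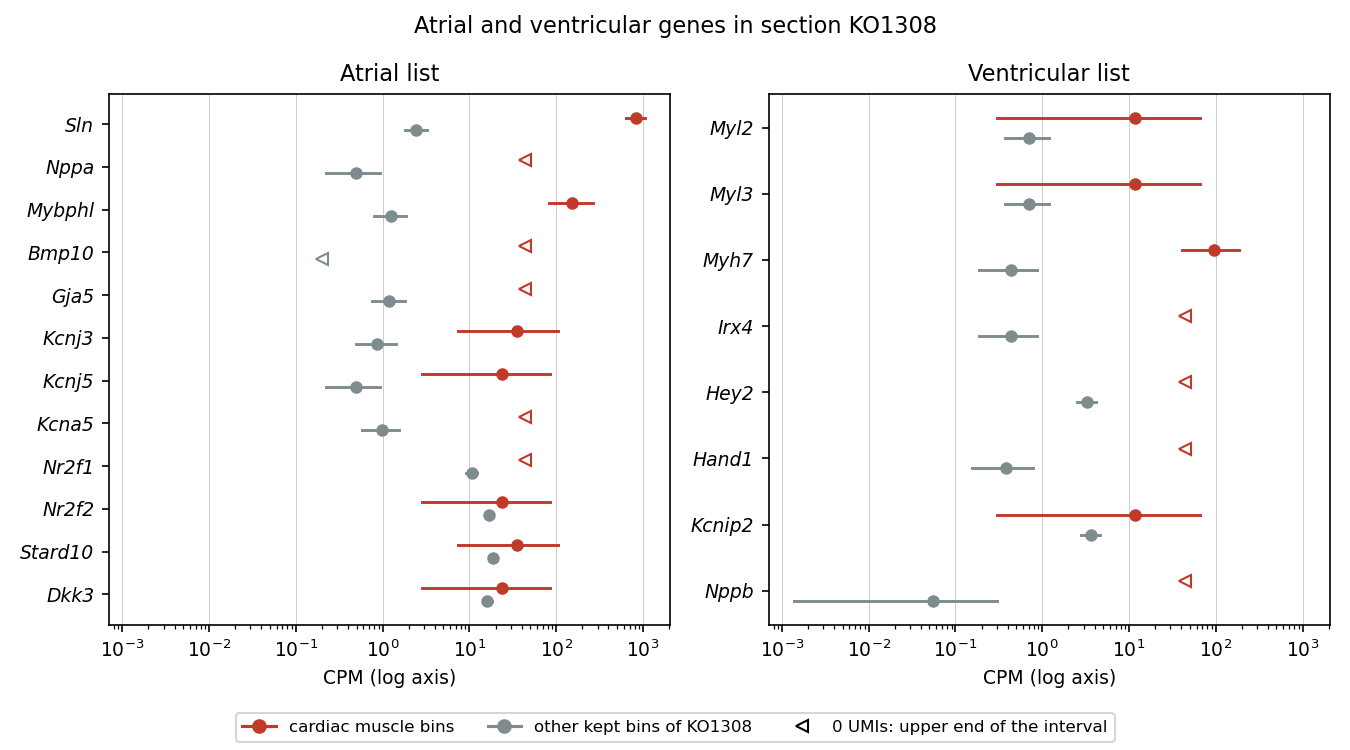
Level (CPM, log axis) of 12 of the 13 atrial and of 8 ventricular genes in the cardiac muscle bins (red) and the other kept bins of KO1308 (grey), with exact Poisson 95% intervals; open triangles mark the upper end of the interval at 0 UMIs. *Sln*, *Mybphl*, *Kcnj3*, *Kcnj5* and *Myh7* stand clear of the other kept bins, *Kcnj3* and *Kcnj5* with 3 and 2 UMIs. The limit at 0 UMIs in the cardiac muscle bins lies above the level of most genes elsewhere.

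Of 21 genes of the sarcomere and its Z disc, 20 had UMIs in the cardiac muscle bins, 10 had at least 50 UMIs in kept bins, and 9 of these were called higher and none lower, at a median ratio of 35.6. *Csrp3*, *Tcap*, *Ldb3* and *Nexn* reached the minimum only with the UMIs of the cardiac muscle bins, and of the 6 genes that reached it in the other kept bins alone 5 were called higher (median ratio 29.1). *Csrp3*, the muscle LIM protein of the Z disc, had 46 UMIs in 29 bins against 14 in all other kept bins, a ratio of 713 (385 to 1404). *Tcap* (telethonin, which anchors titin) had 36 UMIs against 31, and *Ttn* (titin, the molecular spring of the sarcomere) 37 against 95, at ratios of 252 (151 to 421) and 84.5 (56.2 to 125). *Tpm1*, alpha-tropomyosin, had 112 UMIs in 40 bins (1323 CPM against 54.5), a ratio of 24.3 (19.8 to 29.6).

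*Cryab*, a small heat shock protein that protects desmin filaments, had 38 UMIs at a ratio of 33.9 (23.4 to 47.9). *Ldb3*, a Z disc protein, had 24 UMIs at a ratio of 116 (67.4 to 194), and *Actn2*, alpha-actinin, had 20 at a ratio of 35.9 (21.2 to 57.8). *Des*, the muscle intermediate filament desmin, and *Nexn*, a filament protein of the Z disc, completed the 9. *Nebl* (nebulette) was the 1 measured gene not called, at 18 UMIs and a ratio of 1.83 (1.08 to 2.90), with 2130 UMIs in other bins. The other 11 had too few UMIs to be called; *Tnnc1*, troponin C of heart and slow muscle, had 19 UMIs against 17, and *Myoz2* and *Mybpc3* had 12 and 10.

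*Atp2a2*, the calcium pump of the sarcoplasmic reticulum, had 170 UMIs in 54 of 62 bins, with up to 10 in a bin, and read 2008 CPM against 150 CPM (ratio 13.4, 11.4 to 15.6). *Pln*, phospholamban, which restrains that pump, had 20 UMIs against 13 in all other kept bins. *Casq2* (the cardiac calcium store protein), *Ryr2* (the release channel), *Trdn* and *Hrc*, its partners, had 7 to 13 UMIs each. Of 11 genes of the list 5 had at least 50 UMIs, of which *Atp2a2*, *Asph* and *Cacna1c* were called higher and none lower, at a median ratio of 3.13. The calls of *Asph* and *Cacna1c* rest on 5 and 4 UMIs, at ratios of 3.13 (1.01 to 7.36) and 6.29 (1.69 to 16.5). *S100a1* read 106 CPM against 90.7 CPM and was not called.

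Of 20 genes of energy supply, 19 had at least 50 UMIs, 8 were called higher and 1 lower, with a median ratio of 1.87. *Mb* and *Ckm* reached the minimum only with the UMIs of the cardiac muscle bins, and of the 17 genes that reached it in the other kept bins alone 6 were called higher and 1 lower (median ratio 1.86). *Mb*, myoglobin, the oxygen store of muscle, had 50 UMIs in 27 bins against 40 elsewhere, a ratio of 271 (175 to 422), and *Ckm*, muscle creatine kinase, had 25 against 44, a ratio of 123 (72.3 to 206). *Ckmt2*, the creatine kinase of muscle mitochondria, had 25 UMIs against 22 and fell below the minimum for a call. *Slc25a4*, which exchanges ATP and ADP across the inner mitochondrial membrane in heart and muscle, had 110 UMIs (ratio 6.19, 5.07 to 7.48). *Cox7a1*, a cytochrome oxidase subunit of heart and muscle, had 34 UMIs (ratio 3.82, 2.63 to 5.35). *Cox6a2*, *Eno3*, *Fabp3* and *Pgam2* were called higher with 14 to 17 UMIs each. *Lpl* (lipoprotein lipase) and *Ldhb* (the heart form of lactate dehydrogenase) had ratios of 1.87 (1.30 to 2.60) and 1.86 (1.23 to 2.72), under the 2-fold limit. *Cox8b* was called lower, at 10 UMIs and a ratio of 0.462 (0.221 to 0.849), but 3270 of its 4700 UMIs elsewhere lay in the brown fat bins described below. Without those bins it read 118 CPM against 80.8 CPM, a ratio of 1.46 (0.699 to 2.69), so the direction turned and the call ended. The ratio of *Cox7a1* without them was 11.7 (8.02 to 16.5).

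Transcripts of the mitochondrial genome made up 6.26% (6.09% to 6.42%) of the UMIs of the cardiac muscle bins and 2.17% (2.16% to 2.17%) of those of the other kept bins. Of 13 protein-coding mitochondrial genes, 10 were called higher, at ratios from 2.42 for *mt-Nd2* to 3.33 for *mt-Nd6*; *mt-Nd5* had a ratio of 1.73, and *mt-Atp8* and *mt-Nd4l* had 2 UMIs each. Single bins ranged from 0.273% to 19.4%, with a median of 7.47%. Bins over 30% were left out by the limit, and none of those held 5 rule UMIs. The mitochondrial share is also used as a sign of damaged RNA, and its part as such here was not tested.

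Brown fat, the other tissue of the section rich in mitochondria, was set beside the cardiac muscle bins. Brown fat bins were taken, after the data had been seen, as the 348 other kept bins with at least 5 UMIs of *Ucp1* and *Cidea*. Mitochondrial transcripts made up 21.1% (21.0% to 21.2%) of their 674521 UMIs, and 1.44% of those of the other kept bins without them. *Cox8b* read 4848 CPM there against 118 CPM in the cardiac muscle bins, and *Cox7a1* 1964 against 402 CPM. *Slc25a4* went the other way, at 454 CPM in brown fat bins and 1299 CPM in the cardiac muscle bins, as did *Atp2a2*, at 128 and 2008 CPM. *Mb*, *Ckm* and *Ckmt2* had 0 UMIs in the brown fat bins, which allows up to 4.45 CPM, and stood at 591 (*Mb*) and 295 CPM (*Ckm* and *Ckmt2* each) in the cardiac muscle bins. Brown fat genes apart from the energy list gave 3 UMIs in the cardiac muscle bins (*Ucp1*, *Gk* and *Ppargc1a* 1 each).

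**Figure D4:**
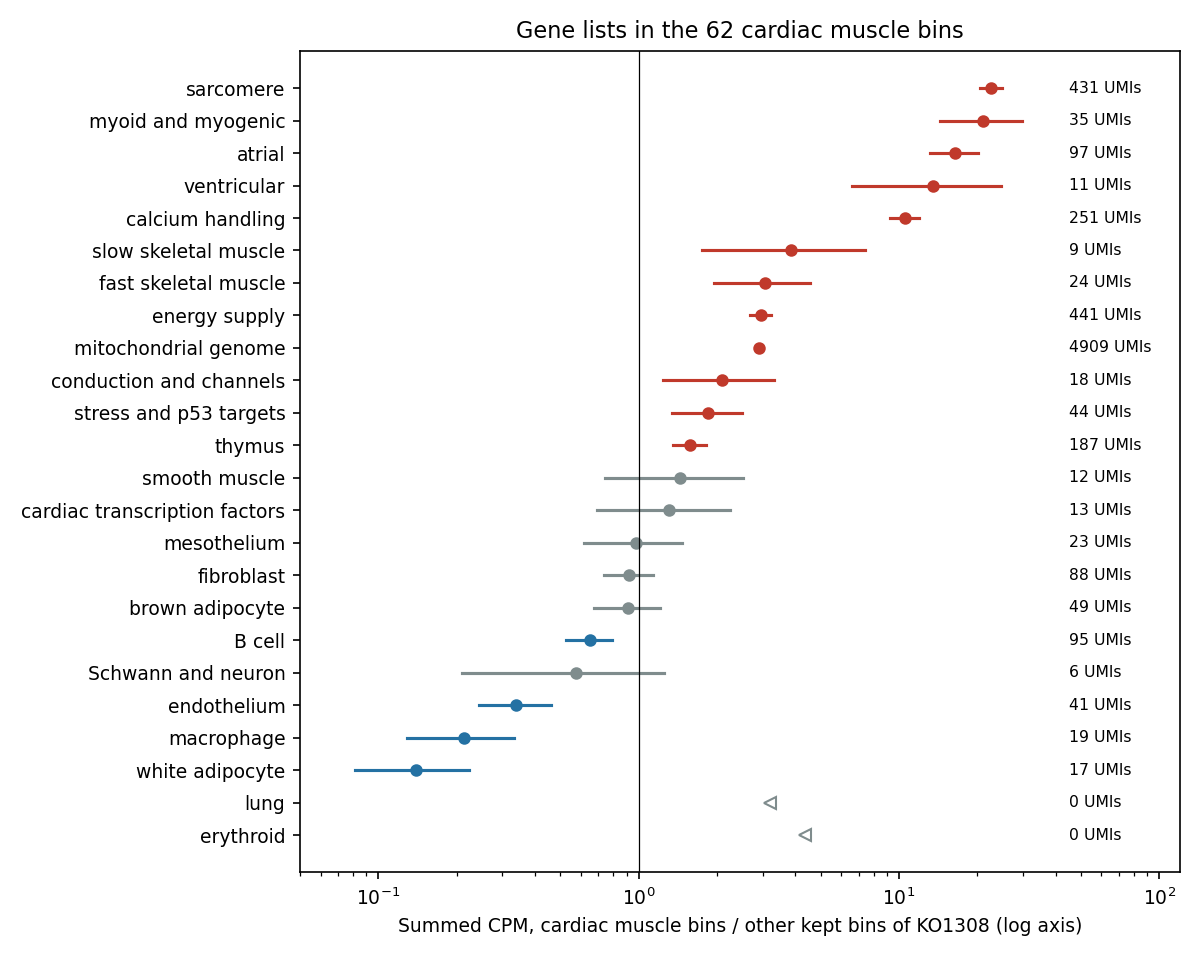
Ratio of summed CPM (log axis) between the 62 cardiac muscle bins and the other kept bins of KO1308 for each gene list apart from the rule genes, with exact 95% intervals; red intervals lie above 1, blue below 1 and grey include 1, open triangles mark the upper end at 0 UMIs, and the number of UMIs in the cardiac muscle bins stands on the right. Sarcomere genes are at 22.6 and white adipocyte genes at 0.139.

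Few UMIs came from transcription factors and channels. Of 12 cardiac transcription factors, 8 had any UMI in the cardiac muscle bins and the list summed to 13 UMIs (154 CPM, 81.8 to 263, against 117 CPM). *Gata4* and *Tbx5*, which act together in heart development, had 2 UMIs each, against 13 and 14 elsewhere, at ratios of 33.4 (3.66 to 147) and 31.0 (3.42 to 135). *Nkx2-5* had 0 UMIs, against 1 in all other kept bins. *Isl1* had 0 against 538, with an upper end of the ratio of 1.49, so the depth could not set it apart from the level of the section. None of the 4 factors with at least 50 UMIs was called (median ratio 0.757). Of 11 conduction and channel genes, 6 had at least 50 UMIs and 2 were called higher, among them *Gja1*, the gap junction protein connexin 43, with 9 UMIs (ratio 2.55, 1.16 to 4.86); the median ratio was 1.27. *Hcn4*, the pacemaker channel, had 0 UMIs against 27.

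Fast and slow skeletal muscle genes were higher as sums, through 1 gene each. The 14 fast genes gave 24 UMIs (ratio 3.05, 1.95 to 4.55), 17 of them from *Myl1*, and the 4 slow genes gave 9 UMIs (ratio 3.87, 1.76 to 7.40), all from *Tnnt1*. Of the fast genes, 10 had 0 UMIs in the cardiac muscle bins, among them *Acta1*, *Myh1*, *Myh4*, *Tnnt3* and *Tnni2*. *Myl1*, a light chain of fast muscle, was the exception with 17 UMIs in 12 bins against 70 elsewhere (ratio 52.7, 29.1 to 90.5); it was the 1 gene called higher among 6 with at least 50 UMIs (median ratio 0.956). The other 3 slow genes were at 0, and the ratio of *Tnnt1* was 10.7 (4.83 to 20.8). *Myog*, *Myod1*, *Chrng* and *Chrna1*, genes of myogenic and myoid cells, had 0 UMIs, and the ratio of 21.0 of that list came from *Ckm* and *Des*, which cardiac muscle also makes; *Ckm* reached the minimum only with the UMIs of the cardiac muscle bins. The 7 smooth muscle genes gave 12 UMIs (142 CPM against 98.2 CPM, ratio 1.44, 0.745 to 2.53), and none of the 5 measured was called (median ratio 0.665). *Acta2* had 0 UMIs against 472, with an upper end of the ratio of 1.70.

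The bins also held transcripts of thymus. The 6 thymus genes summed to 187 UMIs (2209 CPM, 1903 to 2549) in the cardiac muscle bins and to 1406 CPM in the other kept bins, a ratio of 1.57 (1.35 to 1.81), and 48 of 62 bins had at least 1 such UMI. *Cd8b1*, a coreceptor chain of thymocytes, had 82 UMIs (ratio 1.98, 1.57 to 2.46), *Prss16*, a protease of cortical epithelium, 63, and *Arpp21*, a gene of immature thymocytes, 21. None of the 6 was called higher, *Themis* was called lower with 2 UMIs, and the median ratio was 1.46. In the bins within 50 µm the thymus genes read 1711 CPM, and between 50 and 100 µm 1870 CPM.

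Genes of other cell types were at or below the level of the other kept bins of the section as a whole. Macrophage genes read 224 CPM against 1053 CPM (ratio 0.213, 0.128 to 0.333), with 4 of 6 called lower, none higher and a median ratio of 0.223. White adipocyte genes read 201 against 1441 CPM (ratio 0.139, 0.0812 to 0.223), with 5 of 8 called lower (median ratio 0.122); *Adipoq* had 0 UMIs against 1541, with an upper end of the ratio of 0.520. Endothelial genes were lower as a sum (ratio 0.339, 0.243 to 0.460), through *Fabp4* (ratio 0.203), which adipocytes also make. *Fabp4* gave 20 of the 41 UMIs of the list and 21374 of the 26219 elsewhere. Without the brown fat bins the ratios of the list and of *Fabp4* were 0.536 (0.384 to 0.727) and 0.362 (0.221 to 0.560). The other 6 measured endothelial genes were not called, at ratios from 0.341 (*Egfl7*) to 1.78 (*Aqp1*). B cell genes had a ratio of 0.648 (0.524 to 0.792), with 2 of 5 called lower and 94 of 95 UMIs from *Ighm*. Fibroblast genes read 1039 against 1127 CPM (ratio 0.923, 0.740 to 1.14), with 67 of 88 UMIs from *Gsn* and none of 7 called. Against the 185 other kept bins within 100 µm the order differed by list. Fibroblast genes read 559 CPM (479 to 648) there, below the cardiac muscle bins (834 to 1281). Endothelial genes read 410 CPM (342 to 487) there and 484 CPM (348 to 657) in the cardiac muscle bins. Macrophage, white adipocyte and B cell genes read 670, 610 and 2061 CPM there, above the cardiac muscle bins. Lung and erythroid genes had 0 UMIs, with upper ends of the ratio of 3.20 and 4.37. Of 7 mesothelial genes only *Krt8*, shared with other epithelia, had UMIs (23, ratio 1.17).

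Outside all lists, the 3 genes with the largest ratios overlapped cardiac genes on the opposite strand. *Gm49130* (chr14:54940355-54942852, plus strand, GRCm38) overlaps *Myh6* on the minus strand and had 79 UMIs against 46 (ratio 373, 256 to 548). *A530058N18Rik* (chr2:114013563-114068324, plus strand) spans *Actc1* and had 79 UMIs against 52 (ratio 330, 229 to 477). *Gm49540* (chr15:77014093-77015898, plus strand) overlaps the end of *Mb* and had 48 UMIs against 41 (ratio 254, 164 to 395). The sources used here do not state whether counting used strand, so UMIs of these genes and of their cardiac partners cannot be told apart with certainty. *Myh6* and *Actc1* are rule genes, so the ratios of *Gm49130* and *A530058N18Rik* may follow from the choice of bins. *Itgad* (19 UMIs, ratio 17.3, 10.2 to 27.6) likewise overlaps *Cox6a2* on the opposite strand.

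The other 11 of the 15 largest ratios had 4 to 11 UMIs in the cardiac muscle bins. Among them were *Pygm*, the glycogen phosphorylase of muscle (6 UMIs, ratio 18.6, 6.60 to 42.5), *Tmem38a*, a potassium channel of the sarcoplasmic reticulum (8 UMIs, ratio 16.4, 6.89 to 33.4), *Cmya5*, a desmin-associated protein (6 UMIs, ratio 17.1, 6.09 to 39.0), and *Abcc8*, the sulphonylurea receptor subunit of ATP-sensitive potassium channels (6 UMIs, ratio 18.1, 6.42 to 41.3). *Ttc41* (11 UMIs, ratio 18.6) overlaps a pseudogene of *Fabp3* on the opposite strand. *Mfap5*, *Ndrg4*, *Gnao1*, *Pcp4l1*, *Tmem182* and *Tmem35a* made up the rest, at ratios from 17.4 to 27.1.

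Many genes shared the smallest ratio, 0 UMIs in the cardiac muscle bins, and 10 are named by the lowest upper end of the interval. They included *Ighg1* and *Ighg3*, constant regions of secreted antibodies (2446 and 1869 UMIs elsewhere), *Ifi30*, a lysosomal reductase of antigen-presenting cells (1992), and *Swap70*, an actin regulator of B cells (1732). The others were *Nudt9*, *Gm13304*, *Myo9b*, *Tbc1d10a*, *Wfdc2* and *Sprr2a2*, with 1573 to 2287 UMIs elsewhere. For these 10 the upper ends of the ratio lay between 0.327 and 0.509.

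The cardiac muscle bins varied among themselves. A set of 14 cardiac genes outside the rule (*Csrp3*, *Sln*, *Mb*, *Tcap*, *Ttn*, *Ldb3*, *Tnnc1*, *Pln*, *Casq2*, *Mybpc3*, *Myoz2*, *Ryr2*, *Trdn* and *Ckmt2*), put together after their values were known, gave a median of 5 UMIs per bin (0 to 23), and 59 of 62 bins held at least 1. It read 6035 CPM (5358 to 6774) in the 33 bins with at least 10 rule UMIs and 2517 CPM (2032 to 3084) in the 29 with 5 to 9. The mitochondrial share was 7.36% and 4.83% in the same bins. All 11 ventricular UMIs, 8 of them of *Myh7*, lay in the 33 bins, which also held 52 of the 70 *Sln* UMIs. The 33 bins held 47721 of the 84664 UMIs of the cardiac muscle bins and 99 of the 128 *Myh6* UMIs. Reads of *Myh6* and *Myh7* can be confused. The 28 bins with 6 to 8 cardiac neighbours read 5352 CPM (4698 to 6072) for the 14 genes, and the 34 with fewer 3532 CPM (2971 to 4168).

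The 8 bins outside the strip of 54 held 58 rule UMIs in 8088 UMIs and read 2720 CPM (1705 to 4118) for the 14 genes, below the 4688 CPM (4216 to 5199) of the strip. The 4 bins of the second group had high mitochondrial shares, from 10.97% to 19.4%. The isolated bin in the other piece of tissue held 5 UMIs of *Tnni3* and 1 of *Tnnt2*, none of the other rule genes, and a mitochondrial share of 0.273%; it resembled the bin of KO1134 in being passed by *Tnni3*.

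At the threshold, the 11 bins with exactly 5 rule UMIs read 2138 CPM (1481 to 2988) for the 14 genes and 4.05% mitochondrial UMIs. The 12 bins just outside, with exactly 4 rule UMIs, read 1015 CPM (620 to 1568) and 2.94%, and 10 of them lay within 300 µm of the strip.

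Levels fell away over a short distance from the cardiac muscle bins. The 6 rule genes read 9851 CPM (9193 to 10543) in the bins, 976 CPM (792 to 1191) in the 63 kept bins within 50 µm, 376 CPM (298 to 467) between 50 and 100 µm and 149 CPM (115 to 189) between 100 and 200 µm. Beyond 800 µm they read 46.5 CPM (42.9 to 50.3). A bin near the strip was outside the set because it held fewer than 5 rule UMIs, so the first step down is fixed by the rule. The 14 genes outside the rule read 4500 CPM (4060 to 4976) in the bins, 634 CPM (487 to 811) within 50 µm, 181 CPM (129 to 247) between 50 and 100 µm and 13.4 CPM (11.5 to 15.5) beyond 800 µm. Both sets were lower in each ring than in the ring before it. The intervals of neighbouring rings overlapped for the rule genes between 100 to 200 and 200 to 400 µm (100 CPM, 82.4 to 121, in the latter) and from 400 µm outwards, and for the 14 genes from 200 µm outwards.

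The mitochondrial share stepped down from 6.26% in the bins to 2.63% within 50 µm and 0.954% between 200 and 400 µm. It was 2.57% beyond 800 µm, where all 348 brown fat bins described above lay. White adipocyte genes did not follow this order, at 201 CPM in the bins, 413 CPM within 50 µm, 701 CPM between 50 and 100 µm and 232 CPM between 100 and 200 µm.

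**Figure D5:**
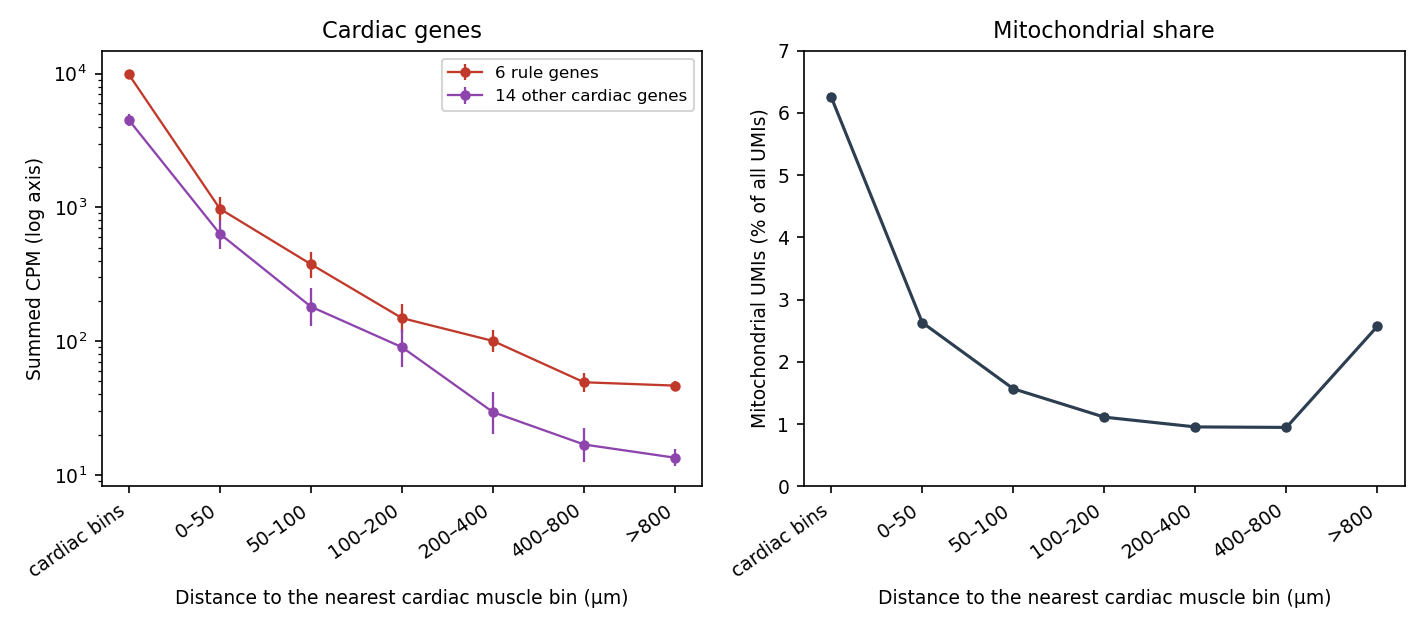
Left, summed CPM (log axis) of the 6 rule genes and of 14 other cardiac genes in the cardiac muscle bins and in rings of kept bins at increasing distance (µm) from the nearest of them, with exact Poisson 95% intervals. Right, mitochondrial UMIs as a percentage of all UMIs in the same bins. Rule genes go from 9851 CPM to 46.5 CPM, and the mitochondrial share from 6.26% to 0.946% at 400 to 800 µm before it stands at 2.57% farther out.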

How the data were processed

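The authors processed the reads of 3 BMKMANU spatial libraries with BSTMatrix and STAR and, with GRCm38 named in the submitters' processing notes, deposited raw UMI counts for every gene in every spot, not normalised, with a position for each spot. Spots were summed in 27 µm squares on a grid from 0, as the authors' methods use that width, and kept at 300 genes and 30% mitochondrial UMIs; doublets were not called, since a bin is not a cell. CPM was computed from UMIs summed over bins. Ratios, intervals and limits at 0 (3 UMIs) cover counting error only. PCR duplicates had been collapsed by UMI. No test was made, with 1 section per mouse.

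The bins, gene lists and comparisons were chosen with earlier results of these data known. The text names the rule genes, list genes with at least 20 UMIs in the cardiac muscle bins and some fixed genes at any count, and the 15 largest and 10 smallest ratios outside the lists; other list genes were named after their values were seen, and 2 list genes are not reported here by name. Gene positions come from GENCODE M21 (99.8% of identifiers matched), and 20 of 27 genes had RefSeq promoter windows. Alternatives in bin width, grid, limits, rule genes, denominator, thinning and comparison bins were computed. Intervals were tested on simulated Poisson counts of genes with many UMIs, which hold counting error only and no spread between bins. Python 3.11.15, numpy 2.4.6, scipy 1.17.1, pandas 2.3.3 and matplotlib 3.10.9 were used.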

Additional observations from a re-analysis of the deposited data

Results flagged for a closer look

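In section KO1308, 4 bins held at least 5 UMIs of the rule genes but were left out of every comparison because they had fewer than 300 genes (156 to 293), against 0 such bins in KO1134 and in WT1101. Of the 4, 3 lay within 100 µm of a cardiac muscle bin. The 13763 bins left out by the limits held 326 rule UMIs, 45 of them within 100 µm of a cardiac muscle bin.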

How the results depend on the processing

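The 7 results (bins passing in each section, atrial and ventricular ratio, atrial share and mitochondrial percent) were recomputed under 15 settings, 2 of them added after seeing the data. Of 79 values, 56 stayed within 1.5 times (counts) or within the interval of the reported value, and 23 moved. A reversal was defined only for the atrial and ventricular ratios, of which 0 reversed. In KO1308 the bins numbered 98 at 3 rule UMIs, 33 at 10 and 31 when each bin was thinned to 500 UMIs. KO1134 had 2 passing bins in 20 µm bins, in 50 µm bins and on the moved grid, 18 at 3 UMIs, and 0 at 10 UMIs and after thinning. WT1101 had 2 in 50 µm bins, 4 at 3 UMIs, and 0 after thinning and in the rule without *Myl7* and *Myl4*. The atrial ratio was 8.82 in 50 µm bins, 11.5 at 3 UMIs, 20.3 at 10 UMIs and 4.73 without *Sln*, and the ventricular ratio was 3.85 without *Myh7*. The mitochondrial percent was 6.47 in 20 µm bins, 4.04 in 50 µm bins, 4.67 at 3 UMIs, 7.36 at 10 UMIs and 6.72 in the rule without *Myl7* and *Myl4*. The cause of these shifts was not tested. In further settings added after seeing the data, the genes called higher among those with at least 50 UMIs in the other kept bins alone were 0 atrial, 5 sarcomere and 1 myoid, while the counts for ventricular, calcium and energy genes stayed within 1.5 times. Against the other kept bins without brown fat bins, the ratio of *Cox8b* turned from 0.462 to 1.46, and that of the endothelial list was 0.536. No paired analysis was possible because there was 1 section per mouse and the results come from no test. With 84664 UMIs in 62 bins, genes under 35.4 CPM could be missed, so 0 UMIs of *Nppa*, *Bmp10*, *Nkx2-5* or *Hcn4* does not show that they were not transcribed.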

Other observations

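Stress genes and targets of p53 were looked at in the cardiac muscle bins because the mouse was labelled *Trp53*-/-. Of 10 genes, 9 had at least 50 UMIs, 1 was called higher and 1 lower, and the median ratio was 0.688. Over all genes tested, 2.23% were called higher and 2.80% lower, at a median ratio of 0.679. *Ccng1*, a p53 target, was higher, with 15 UMIs (177 CPM against 65.5 CPM, ratio 2.71, 1.51 to 4.48), whereas *Mdm2*, another target, had 7 UMIs (ratio 1.12, 0.450 to 2.32) and *Cdkn1a* had 1. *Cdkn2a* was lower, at 0 UMIs against 928. *Trp53* itself had 0 UMIs in the cardiac muscle bins against 467 elsewhere, which the depth could not set apart from the level of the section (upper end of the ratio 1.72). *Hspb7*, a small heat shock protein of heart and muscle, had 17 UMIs in 15 bins against 10 in all other kept bins, a ratio of 369 (159 to 901), and had too few UMIs for a call. The other stress genes of the list had 0 to 2 UMIs each, and none was called.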
